A study of Rattus norvegicus with 18 samples.

Results

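The genes described here are 10 that act in blood vessel growth or mark the cells of vessel walls: Vegfa, Flt1, Kdr, Angpt1, Angpt2, Tek, Pecam1, Cdh5, Vwf and Notch3. They were found by name on the rat array, where 16 of 41012 gene probes carry the name of a member or its current synonym, and they make up 10 of the 23606 genes or transcripts tested. RNA from the knee synovium, the soft tissue that lines the joint, was hybridised to 18 single-colour arrays, with 3 arrays in each of 6 groups of male Lewis rats, an inbred strain, aged 6 to 8 weeks. The groups were AIA-cold-WTD and AIA-hot-WTD (a cold or a hot model of adjuvant-induced arthritis, AIA, treated with the Chinese herbal formula WTD), AIA-cold and AIA-hot (the same models without WTD), AIA (arthritis with neither model) and normal control. The sources used here do not say by what procedure the cold and hot models were made, nor the dose or route of WTD. The labels state 6 rats in a group, of which 3 arrays are given here. They call the arrays biological replicates without numbering the animals, so p-values measure the spread between arrays, which may be partly technical.

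VEGF-A, the product of Vegfa, is secreted by tissue cells that are short of oxygen, among others, and drives endothelial cells to divide and sprout through the receptor encoded by Kdr. The receptor encoded by Flt1 binds the same ligand tightly, signals weakly and can act as a decoy. Angiopoietin 1 (Angpt1) keeps vessels quiet and tight through the receptor Tie2 (Tek), and angiopoietin 2 (Angpt2), released by endothelial cells, often counters it. Pecam1 and Cdh5 encode adhesion proteins of the junctions between endothelial cells, Vwf the von Willebrand factor that endothelial cells store for haemostasis, and Notch3 a receptor of pericytes and vascular smooth muscle. Growth of new vessels is a known part of inflamed synovium in arthritis.

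Levels below are log2 processed signals relative to the array's own 75th percentile over gene probes. A level of a single probe cannot be set against that of another probe, so each gene is compared with itself between groups. The 10 genes are each represented by the brightest of their kept probes. All 16 probes passed the filter on dim probes, and 15 of them were well above background on all 18 arrays, so no group of a member rests on a bound. All 14 endothelial marker genes of the list used here were measurable in this tissue. In such bulk tissue, fewer cells of a type and less RNA per cell cannot be told apart.

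Control replicate 1 stood apart from the other 17 arrays. Its 75th percentile of signal was 68.9, against 201 to 331 elsewhere, and 43.3% of its probes were well above background, against 56.4% to 76.6%. Its mean level over 8 cartilage genes was 4.62, against -2.01 to 1.18 on the other arrays, its macrophage mean over 6 genes was 0.69, against 1.75 to 2.42, and its endothelial mean over 14 genes was 2.21, against 0.63 to 1.31. The main differences from control are therefore given with and without this array. The arrays lay on 5 slides that overlapped the groups only in part: controls shared a slide with AIA replicate 1, and AIA-cold with AIA-cold-WTD replicate 1. All arrays of the cold groups lay on slides 4 and 5, and all other arrays on slides 1 to 3. Differences of AIA-cold or AIA-cold-WTD from control, and of AIA-cold from AIA or AIA-hot, therefore cannot be told apart from differences between slides.

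The sequences of 6 of the 16 probes are shown because the values below turn on them. Vegfa and Vwf each have a pair of probes that can be set side by side, the Cdh5 probe shifted most on control replicate 1 among those that represent a gene, and Notch3 had the smallest p of any member in a comparison. They are read 5′ to 3′ from the deposited scanner files, and the capitals mark the start codon with which the other Vegfa probe begins.
Vegfa: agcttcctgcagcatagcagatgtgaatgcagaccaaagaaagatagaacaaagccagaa
Vegfa probe 2: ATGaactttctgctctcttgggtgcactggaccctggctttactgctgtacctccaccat
Cdh5: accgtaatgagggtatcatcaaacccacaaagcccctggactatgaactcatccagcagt
Vwf: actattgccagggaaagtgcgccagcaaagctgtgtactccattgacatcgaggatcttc
Vwf probe 2: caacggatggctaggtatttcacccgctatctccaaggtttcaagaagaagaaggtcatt
Notch3: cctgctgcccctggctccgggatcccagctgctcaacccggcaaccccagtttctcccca
The files place them on the rat build rn4 without exon annotation. The Vegfa probes lie at chr9:10528580-10528965 and chr9:10521744-10521803 on the plus strand, and the Cdh5 probe at chr19:788852-790286 on the minus strand. The Vwf probes lie at chr4:161853997-161854486 and chr4:161809533-161809592 on the plus strand, and the Notch3 probe at chr7:12688876-12688935 on the minus strand. Each probe has 60 bases, so that the spans of 386 bases (Vegfa), 1435 bases (Cdh5) and 490 bases (Vwf) take in genome sequence that is not in the probe.

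None of the 10 genes passed the test in any of the 11 comparisons (limma, Benjamini-Hochberg adjusted p under 0.05 over 23606 genes), nor in the test of any difference among the 6 groups. Among all genes, that last test called 0.0297%. Against control, the shares of all genes called were 0.534% in AIA-cold, 0.0551% in AIA-hot, 0% in AIA, 0.0297% in AIA-cold-WTD and 0.0805% in AIA-hot-WTD. Between the models they were 0% for AIA-cold against AIA, 0% for AIA-hot against AIA and 0.00847% for AIA-cold against AIA-hot. WTD gave 0.00847% in the cold model and 0% in the hot model, and the difference between both WTD effects 0%. Without control replicate 1 the test again called no member, and the shares of all genes called were 0.191% in AIA-cold against control, 0.0297% in AIA-hot, 0% in AIA, 0.106% in AIA-cold-WTD and 0.0932% in AIA-hot-WTD. They were then 0.322% for AIA-cold against AIA, 0% for AIA-hot against AIA, 0.0212% for AIA-cold against AIA-hot, 0.0339% and 0.00424% for WTD in the cold and the hot model, 0.00847% for the difference of both and 0.0805% for any difference among the groups. With such shares of all genes called, a count of 0 among 10 genes is near the background.

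At an unadjusted p under 0.05 the members were counted with all arrays and with control replicate 1 left out. Against control, with all arrays, there were 2 members in AIA-cold, where 18.7% of all genes fell under this threshold, and 1 in AIA-hot, where 12.1% did. There was 1 in AIA, where 6.29% did, 1 in AIA-cold-WTD, where 15.1% did, and none in AIA-hot-WTD, where 13.5% did. With that array left out there were 0 in AIA-cold (14.7% of all genes), 0 in AIA-hot (10.2%), 0 in AIA (4.77%), 1 in AIA-cold-WTD (10.9%) and 0 in AIA-hot-WTD (12.3%). Between the models there was 1 in AIA-cold against AIA (9.05% of all genes), none in AIA-hot against AIA (5.13%) and 1 in AIA-cold against AIA-hot (5.49%). With the spread estimated without control replicate 1, these were 1 (13.8%), 0 (8.28%) and 2 (8.82%). For WTD there were 2 members in the cold model (6.09% of all genes), none in the hot model (2.28%) and 2 in the difference of both effects (4.19%). In the fit that leaves out that array they were 2 (9.04%), 0 (4.25%) and 3 (7.22%). In the test of any difference among the 6 groups, Notch3 alone among the members fell under it with all arrays (10.8% of all genes; limma, adjusted p = 0.32) and without control replicate 1 (13.0%).

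**Figure D1:**
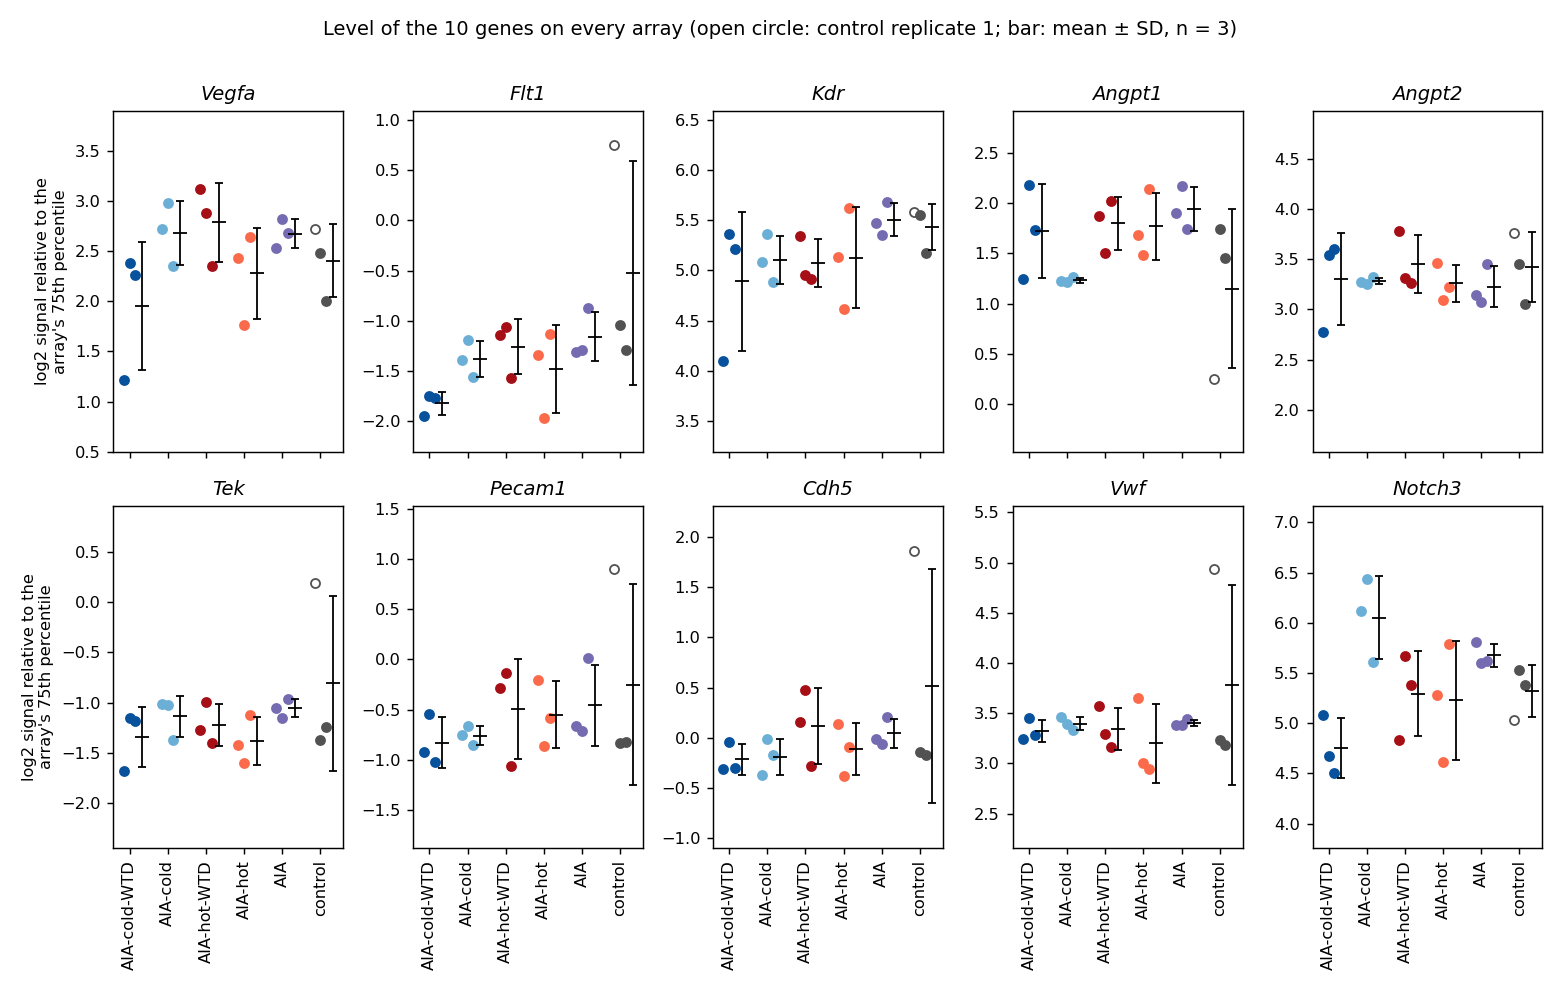
Level of each of the 10 genes on each of the 18 arrays (y axis, log2 signal relative to the array's 75th percentile, the same span of values in every panel), by group on the x axis, with the mean ± SD (n = 3) beside the points. Control replicate 1, the open circle, lies far above every other array for Flt1, Tek, Pecam1, Cdh5 and Vwf and below every other array for Angpt1, and the AIA-cold-WTD arrays lie below the AIA-cold arrays for Notch3.

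Vegfa, the ligand, lay lower in AIA-cold-WTD than in AIA-cold and higher in AIA-hot-WTD than in AIA-hot, and neither difference passed the test. Its levels were 1.22, 2.38 and 2.26 on the AIA-cold-WTD arrays, against 2.71, 2.98 and 2.35 on the AIA-cold arrays. They were 3.12, 2.88 and 2.36 in AIA-hot-WTD, against 2.43, 1.77 and 2.64 in AIA-hot. In AIA they were 2.53, 2.82 and 2.68, against 2.72, 2.48 and 2.01 in control. AIA-cold-WTD replicate 1 and AIA-hot replicate 2 were the lowest of the 18 arrays, and every pair of groups compared overlapped. The difference was -0.73 ± 0.32 (SE, limma, adjusted p = 0.79) for AIA-cold-WTD minus AIA-cold and 0.51 ± 0.32 (SE, adjusted p = 1.00) for AIA-hot-WTD minus AIA-hot. On slide 4, which held AIA-cold-WTD replicate 1 and all 3 AIA-cold arrays, the difference of Vegfa was -1.47. Without AIA-cold-WTD replicate 1 the difference was -0.36. On slide 3, which held all 3 AIA-hot-WTD arrays and AIA-hot replicate 3, it was 0.15. The other Vegfa probe followed the first over the 18 arrays (r = 0.93) and differed by -0.45 in the cold and 0.59 in the hot model.

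Flt1 was at a lower mean in every arthritic group than in control with all arrays. The size of these differences, and in AIA also the sign, rested on control replicate 1. Flt1 levels were -1.95, -1.75 and -1.77 in AIA-cold-WTD, against -1.39, -1.19 and -1.56 in AIA-cold. They were -1.15, -1.06 and -1.57 in AIA-hot-WTD, against -1.34, -1.97 and -1.13 in AIA-hot. In AIA they were -1.31, -1.29 and -0.87, against 0.76, -1.04 and -1.29 in control. All 3 AIA-cold-WTD arrays lay below the AIA-cold arrays and below the control arrays, and control replicate 1 lay above all other arrays. Against control, 9.83% of all genes had AIA-cold-WTD arrays that lay entirely below, and Flt1 was the 1 member among them. AIA-cold-WTD differed from control by -1.30 ± 0.40 (SE, limma, adjusted p = 0.18), and without control replicate 1 by -0.66 (adjusted p = 0.31). The difference of AIA-cold-WTD from AIA-cold was -0.44 ± 0.40 (SE, adjusted p = 1.00), within an interval of -1.29 to 0.41. AIA-hot differed from control by -0.95 (adjusted p = 0.36) and without control replicate 1 by -0.31. AIA differed from control by -0.63 with all arrays and by 0.01 without control replicate 1. The other Flt1 probe did not reach the level called well above background on that control array. It differed from control by -0.53 in AIA-cold-WTD with all arrays and by -0.09 with that array left out. For this probe the difference of AIA-cold-WTD from AIA-cold was -0.09.

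Kdr, which encodes the receptor that carries most VEGF-A signalling, passed the test in no comparison. Its means were 4.89 ± 0.69 in AIA-cold-WTD, 5.11 ± 0.24 in AIA-cold, 5.07 ± 0.24 in AIA-hot-WTD, 5.12 ± 0.50 in AIA-hot, 5.50 ± 0.17 in AIA and 5.43 ± 0.23 in control (SD, n = 3). The largest difference against control, in AIA-cold-WTD, was -0.54 ± 0.30 (SE, limma, adjusted p = 0.41), and without control replicate 1 it was -0.47. AIA-cold-WTD replicate 1, at 4.10, and AIA-hot replicate 2, at 4.62, were its lowest arrays, as they were for Vegfa. No neighbouring groups in the order of its means lay further apart than the larger of their SDs, nor did those of Vegfa or Flt1. Kdr had a single probe, given without a genome position, so no other probe can be set beside it.

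Angpt1, the ligand that stabilises vessels, had the largest difference between AIA and control among the members and was the only member with its lowest value on control replicate 1. Its levels were 1.90, 2.17 and 1.74 in AIA, against 0.25, 1.74 and 1.45 in control. They were 1.23, 1.22 and 1.26 in AIA-cold and 1.69, 1.48 and 2.14 in AIA-hot. With WTD they were 1.25, 2.18 and 1.73 in AIA-cold-WTD and 1.87, 1.51 and 2.02 in AIA-hot-WTD. The 3 AIA-cold arrays lay below all AIA arrays and all AIA-hot arrays and almost at the same level as each other. AIA differed from control by 0.79 ± 0.33 (SE, limma, adjusted p = 0.76), and without control replicate 1 by 0.34 (adjusted p = 1). AIA-cold differed from AIA by -0.71 ± 0.33 (SE, adjusted p = 0.55) and from AIA-hot by -0.53 ± 0.33 (SE, adjusted p = 0.95). No slide held arrays of both groups in either of these comparisons. With slide as a random block the differences of Angpt1 were -0.67 and -0.48, but such a fit cannot tell slide and group apart here. In AIA-cold against AIA, arrays did not overlap for 13.5% of all genes in the lower direction and for 1 of the 10 members, Angpt1. In AIA-cold against AIA-hot the share was 6.77%, and Angpt1 was again the 1 member.

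Angpt2, the antagonist, had the smallest spread of group means among the members, 0.23. Its means lay between 3.23 ± 0.20 in AIA and 3.45 ± 0.29 in AIA-hot-WTD (SD, n = 3), and control averaged 3.42 ± 0.35. Its difference from control was -0.14 in AIA-cold, with an interval of -0.63 to 0.36, and -0.20 in AIA, with an interval of -0.69 to 0.30. Without control replicate 1 the Angpt2 differences were 0.03 and -0.03, so the sign in AIA-cold turned with that array. Its 3 probes followed each other with r between 0.66 and 0.91 over the 18 arrays. Tek, which encodes the receptor of both ligands, averaged -1.34 ± 0.30 in AIA-cold-WTD, -1.14 ± 0.21 in AIA-cold, -1.22 ± 0.21 in AIA-hot-WTD, -1.38 ± 0.24 in AIA-hot, -1.06 ± 0.09 in AIA and -0.81 ± 0.87 in control (SD, n = 3). The SD of Tek in control came from replicate 1 at 0.20, with the other control arrays at -1.37 and -1.24. The difference of AIA-hot from control for Tek was -0.57 ± 0.32 (SE, limma, adjusted p = 0.48) and without control replicate 1 it was -0.07. The second Tek probe differed from control by -1.02 in AIA-cold-WTD and by -0.75 in AIA-cold with all arrays, against -0.40 and -0.13 without control replicate 1. No probe of any member passed when each was fitted on its own (limma, smallest adjusted p = 0.19). Agreement of probe pairs rested in part on control replicate 1. Without it, r fell from 0.89 to 0.63 for Flt1, from 0.88 to 0.53 for Tek and from 0.86 to 0.55 for Vwf. The Vegfa pair stayed at 0.93, and the Angpt2 pairs lay between 0.71 and 0.89.

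Cdh5, Pecam1 and Vwf, which mark the endothelium itself, had lower means in all 5 arthritic groups than in control with all arrays, and none of these differences passed the test. Cdh5 levels were -0.31, -0.04 and -0.30 in AIA-cold-WTD, -0.37, -0.01 and -0.17 in AIA-cold, 0.16, 0.47 and -0.28 in AIA-hot-WTD and 0.14, -0.38 and -0.09 in AIA-hot. In AIA they were -0.01, -0.06 and 0.21, against 1.87, -0.14 and -0.17 in control. The other control arrays lay among the arthritic arrays, while control replicate 1 lay far above them. Cdh5 differed from control by -0.70 ± 0.40 (SE, limma, adjusted p = 0.36) in AIA-cold and by -0.03 without control replicate 1. For Pecam1 in AIA-cold the differences were -0.51 and 0.07, and for Vwf -0.39 and 0.19. With WTD, Cdh5, Pecam1 and Vwf differed by -0.03, -0.07 and -0.07 in the cold model and by 0.23, 0.06 and 0.14 in the hot model, all within intervals that span 0. Vwf is also made by megakaryocytes and carried by platelets, and the mean of 4 platelet genes on control replicate 1 was -1.32, within the -1.70 to 0.19 of the other arrays. Of these genes, Pf4 was well above background on 3 of 3 control arrays, Gp9 on 2, Ppbp on 1 and Gp1ba on 0. The platelet mean in control thus rests partly on dim signal, and the part of platelets in the Vwf level was not tested.

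The members differed in how far control replicate 1 stood from the other controls. Against the mean of the other controls, the shift was 2.02 for Cdh5, 1.92 for Flt1, 1.73 for Pecam1, 1.73 for Vwf and 1.50 for Tek, but 0.48 for Vegfa, 0.22 for Kdr, 0.50 for Angpt2, -0.43 for Notch3 and -1.34 for Angpt1. Dim probes in general were higher on this array: with all kept probes split by brightness into 10 bins, the median shift was 1.18 in the dimmest bin and -0.22 in the brightest. Among probes of like brightness the shift of Cdh5 stood at the 98.4 percentile, that of Vwf at 98.3 and that of Pecam1 at 97.6, while Kdr stood at 80.5 and Notch3 at 35.8. The second Vwf probe, in a dimmer range, shifted by 2.24. The part that the array's low signal or its cartilage genes have in these shifts was not tested.

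**Figure D2:**
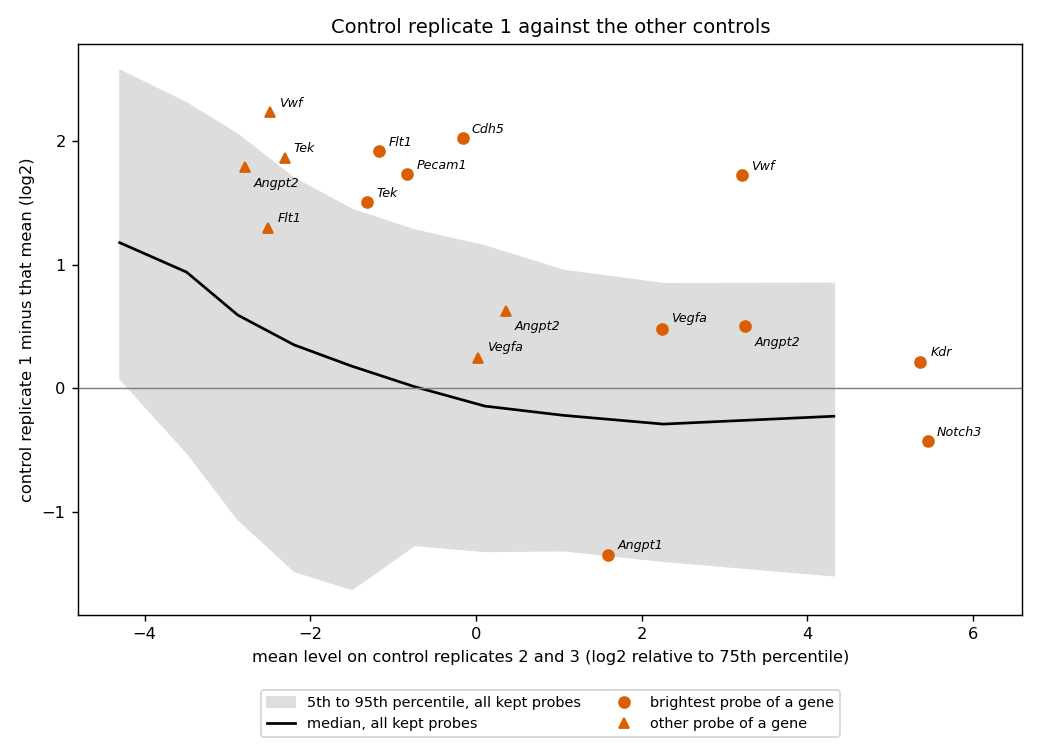
Level of each member probe on control replicate 1 minus its mean on control replicates 2 and 3 (y axis, log2) against that mean (x axis, log2 relative to the 75th percentile), with the median and the range from the 5th to the 95th percentile of all 28271 kept probes in 10 bins of brightness. Circles are the probe used for a gene and triangles its other probes. Cdh5 at 2.02 and Vwf at 1.73 lie above the band, and Kdr at 0.22 and Notch3 at -0.43 lie close to the line at 0.

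**Figure D3:**
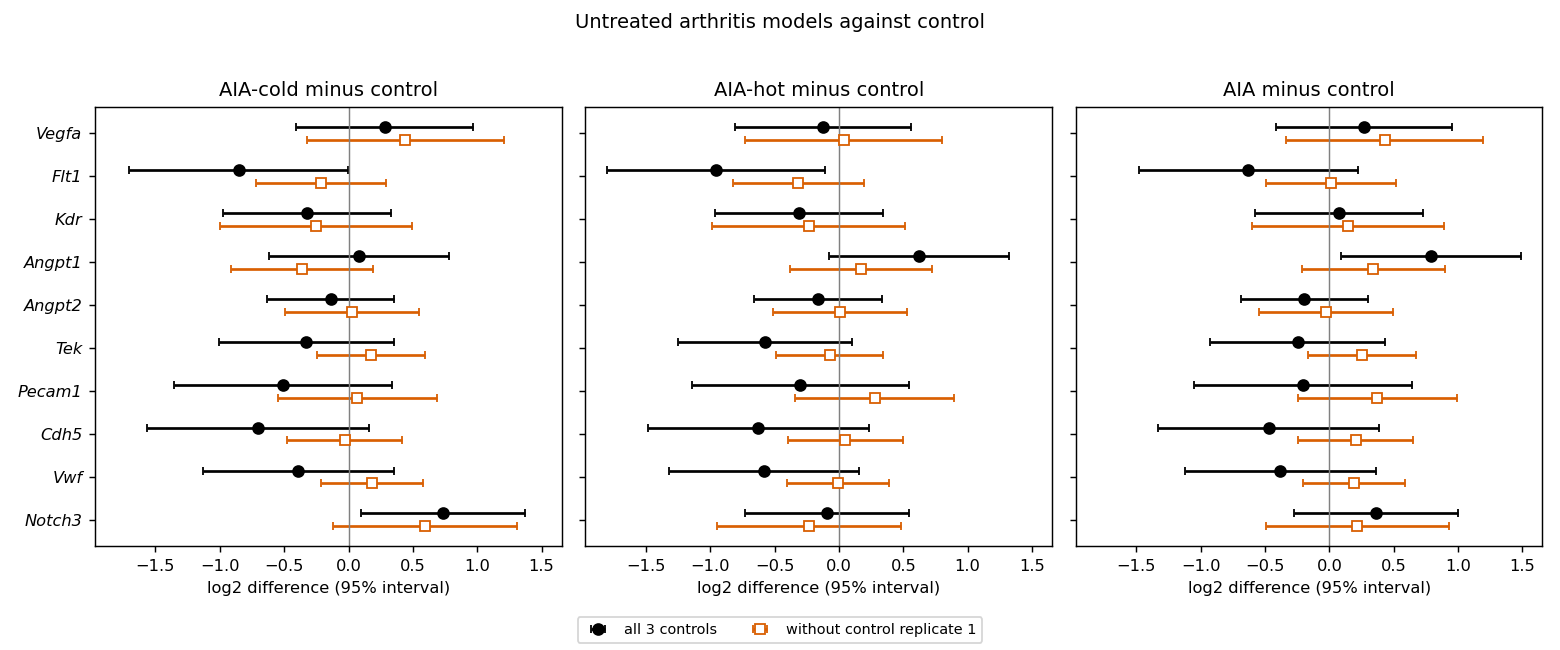
Difference from control (x axis, log2, with 95% intervals from limma) of the 10 genes in AIA-cold, AIA-hot and AIA, with all 3 control arrays (filled circles) and without control replicate 1 (open squares). The intervals without that array span 0 for every gene, and Cdh5 in AIA-cold lies at -0.70 with it and at -0.03 without it.

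Over the 10 members, the count of positive differences from control changed with that array. With all arrays, 3 members had a difference above 0 in AIA-cold (46.1% of all genes), 1 in AIA-hot (43.3%), 4 in AIA (46.5%), 1 in AIA-cold-WTD (46.0%) and 3 in AIA-hot-WTD (42.4%). In AIA-cold, AIA-hot and AIA the members' medians were -0.33, -0.30 and -0.20, against medians of all genes of -0.04, -0.05 and -0.03. Without control replicate 1, 6 members had a difference above 0 in AIA-cold (48.8% of all genes), 5 in AIA-hot (46.1%), 9 in AIA (52.9%), 4 in AIA-cold-WTD (47.3%) and 7 in AIA-hot-WTD (44.0%). Their medians in the first 3 were then 0.05, -9e-04 and 0.21. Between the models, 3 members had a difference above 0 in AIA-cold against AIA (48.3% of all genes) and 1 in AIA-hot against AIA (43.7%), with medians of -0.15 and -0.26. AIA-cold against AIA-hot had 6 members above 0 (51.2% of all genes) and a median of 0.06.

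Notch3, the mural cell receptor, had the smallest p of any member: it lay lower in AIA-cold-WTD than in AIA-cold, with no overlap of the arrays, and did not pass the test over all genes. Its levels were 5.08, 4.67 and 4.50 in AIA-cold-WTD, against 6.12, 6.44 and 5.61 in AIA-cold. They were 4.83, 5.67 and 5.38 in AIA-hot-WTD, against 5.28, 4.61 and 5.79 in AIA-hot. In AIA they were 5.81, 5.60 and 5.62, against 5.03, 5.53 and 5.39 in control. AIA-cold held the 2 highest of the 18 arrays and AIA-cold-WTD 2 of the 3 lowest, and the hot groups overlapped each other. AIA-cold-WTD minus AIA-cold was -1.30 ± 0.30 (SE, limma, adjusted p = 0.51), a level 2.47-fold lower with an interval of -1.94 to -0.66 on the log2 scale. On slide 4 alone, with 1 AIA-cold-WTD and 3 AIA-cold arrays, the difference of Notch3 was -0.97. The other AIA-cold-WTD arrays lay on slide 5, which held no array of another group. Arrays of these groups did not overlap in the lower direction for 6.70% of all genes and for 2 of the 10 members, Notch3 and Flt1.

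The difference of Notch3 between AIA-cold and control was 0.74 ± 0.30 (SE, limma, adjusted p = 0.20), and without control replicate 1 it was 0.59 (adjusted p = 0.44). No slide held arrays of both these groups. The AIA-cold arrays all lay above the control arrays, which held in the higher direction for 10.8% of all genes and for no other member. The AIA arrays did so as well, as they did for 5.32% of all genes. In the hot model WTD differed by 0.07 ± 0.30 for Notch3 (SE, adjusted p = 1.00). On slide 3, with 3 AIA-hot-WTD arrays and 1 AIA-hot array, the Notch3 difference was -0.50, so its sign turned within that slide. The effect of WTD in the cold model minus that in the hot model was -1.37 ± 0.42 (SE, adjusted p = 0.99). With slide as a fixed block it was -0.47, so its size depended on how slides were treated. The median of 11 mural cell genes, Notch3 included, was 0.06 for WTD in the cold model, with 6 higher and 5 lower and none called. The mean level of these 11 genes was 2.80 to 3.13 on the AIA-cold-WTD arrays, against 2.93 to 3.06 on the AIA-cold arrays.

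**Figure D4:**
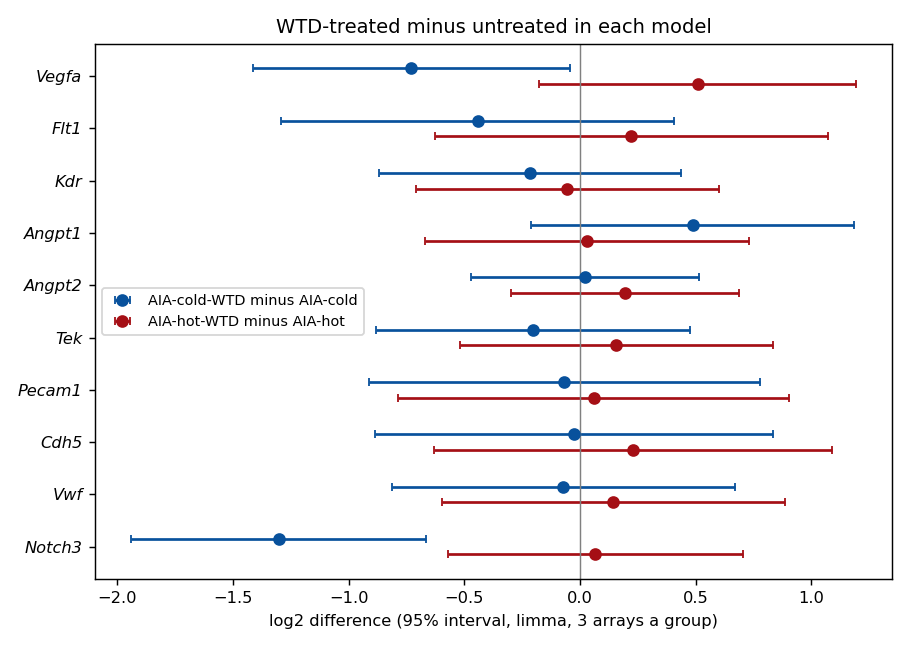
Difference between WTD-treated and untreated arrays (x axis, log2, with 95% intervals from limma, 3 arrays a group) of the 10 genes in the cold model (blue) and the hot model (red). Notch3 and Vegfa have intervals below 0 in the cold model, at -1.30 and -0.73, and all intervals of the hot model span 0. The intervals are not adjusted for the number of genes, and neither difference passed the test. On the other Vegfa probe, not shown, the difference in the cold model was -0.45 ± 0.34 (SE).

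For WTD, 2 members had a difference above 0 in AIA-cold-WTD against AIA-cold (51.0% of all genes, median of the members -0.14), and 9 in AIA-hot-WTD against AIA-hot (47.3%, median 0.15). The medians of all genes were 0.01 and -0.01. The count in the hot model was lower within a slide: on slide 3, with 3 AIA-hot-WTD arrays and 1 AIA-hot array, 5 members were above 0 and 5 below. On slide 4, with 1 AIA-cold-WTD and 3 AIA-cold arrays, 1 member was above 0 in the cold model and 9 below. The difference of the effects, cold minus hot, was above 0 for 1 member (51.7% of all genes), with a median of -0.24. The arrays are the same for all members, so these counts are no independent repeats.

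The other genes of these pathways, on lists drawn up with earlier results of these data known, held 1 call in all. Of the 14 endothelial genes, 6 of them members, 13 were lower in AIA-cold than in control, 14 in AIA-hot and 13 in AIA, with medians of -0.37, -0.52 and -0.26. The medians of all genes were -0.04, -0.05 and -0.03. Without control replicate 1, 8 of the 14 were lower in AIA-cold, 11 in AIA-hot and 4 in AIA, with medians of -0.03, -0.09 and 0.13. The medians of all genes were then -0.01, -0.03 and 0.02, and no gene of the list was called in either setting. Tie1, the partner receptor of Tie2, had the smallest p of the list in AIA-cold against control, with a difference of -0.45 ± 0.19 (SE, limma, adjusted p = 0.23), and without control replicate 1 its difference was -0.16. Of the 10 VEGF ligands and receptors, 3 were higher and 7 lower in AIA-cold than in control and none was called; without control replicate 1, 4 were higher and 6 lower. Vegfc, a ligand known for lymphatic vessel growth, differed there by -0.72 ± 0.25 (SE, adjusted p = 0.15), and by -0.52 without control replicate 1. None of the 7 angiopoietin and Tie genes was called in any comparison, and Svep1, which encodes a large extracellular protein, had the smallest p of them in AIA-hot against control, with 0.67 ± 0.14 (SE, adjusted p = 0.089), and 0.57 without control replicate 1. Svep1 was well above background on 3 of 3 AIA-hot arrays and on 2 of 3 control arrays.

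Of the 15 measured Notch and arterial genes none was called. In AIA-cold against control 4 were higher and 11 lower with all arrays, with a median of -0.25, and 11 were higher and 4 lower without control replicate 1, with a median of 0.15, so the direction of this list turned with that array. Heyl, a target of Notch receptors, differed by 1.05 ± 0.27 (SE, limma, adjusted p = 0.081), and by 1.21 without control replicate 1. Heyl lay between -2.98 and -2.56 on the AIA-cold arrays, against -4.31 to -3.48 on the control arrays. Notch3 also had its highest mean in AIA-cold, but a relation between Heyl and Notch3 was not tested. Without control replicate 1, Notch3 followed the mean of the other 14 genes of this list with r = 0.09. Heyl was well above background on 3 of 3 AIA-cold arrays and on 1 of 3 control arrays, so its difference is imprecise on the control side. In AIA-cold-WTD the Heyl levels were -2.55, -3.46 and -3.52. Among the 13 endothelial transcription factors, the 12 genes of endothelial activation and haemostasis, the 15 measured angiogenic peptides and inhibitors, and the 5 measured lymphatic genes, none was called in any comparison. Fgf2, an angiogenic growth factor, came closest, with -1.05 ± 0.22 (SE, adjusted p = 0.052) in AIA-cold against control, and -0.82 without control replicate 1.

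The only list gene called in any comparison was Slc2a1, a glucose transporter that hypoxia induces, among 16 hypoxia genes that include Vegfa. Slc2a1 fell in AIA-cold, to 1.36, 1.73 and 1.45, against 3.00, 2.68 and 2.78 in control, a difference of -1.31 ± 0.21 (SE, limma, adjusted p = 0.024). Without control replicate 1 the difference was -1.22 (adjusted p = 0.0505), which did not pass. No slide held both AIA-cold and control arrays, so this difference cannot be told apart from one between slides. Vegfa, from the same list, differed there by 0.28 ± 0.32 (SE, adjusted p = 0.66), and by 0.44 without control replicate 1.

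Arrays low in Vegfa, Kdr and Tek were also low in genes of fat tissue. The mean level of 7 adipocyte genes was 1.02 on AIA-cold-WTD replicate 1 and 2.33 on AIA-hot replicate 2, against 3.19 to 4.65 on the other 15 arrays without control replicate 1. Of the 16 member probes, 8 had their lowest value on AIA-cold-WTD replicate 1, and so did 4 of the 10 genes by the probe that represents them. Probes of the same gene are no independent counts, and the share of all genes lowest on this array was not computed. The titles mark that array with the letter G and the other AIA-cold-WTD arrays with Z, which nothing in the labels explains. Over 17 arrays, without control replicate 1, Vegfa followed the adipocyte mean with r = 0.825 (permutation p = 0.00033, adjusted 0.0049) and rho = 0.544 (permutation p = 0.025, adjusted 0.19). For Kdr r was 0.849 and for Tek 0.783 (permutation, adjusted p = 0.0044 each), with rho at 0.654 and 0.515. Without both of the low arrays r was 0.388 for Vegfa, 0.483 for Kdr and 0.486 for Tek, so these relations rest on those arrays. Within groups r was 0.859, 0.908 and 0.786, and within slides 0.928, 0.872 and 0.814. These values again hold all 17 arrays, both low arrays included, so they do not show whether the relations stand without them. Slides held at most 4 arrays, too few for a value of each slide on its own.

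Kdr also ran against the cartilage genes: over the same 17 arrays r was -0.758 (permutation p = 0.00022, adjusted 0.0044) and rho -0.848 (permutation p = 5e-05, adjusted 0.003). Without AIA-hot-WTD replicate 2 and control replicate 2, the 2 arrays farthest from the cartilage median, r was -0.766. Within groups r was -0.716 and within slides -0.732. AIA-cold-WTD replicate 1 and AIA-hot replicate 2, left out for the fat relations, stayed in here, with cartilage means of 0.77 and 1.03. Whether the relation of Kdr with cartilage stands without them was not tested. With control replicate 1 included r was -0.277, since that array had the highest cartilage mean and a Kdr level of 5.58. Of 60 relations between the 10 genes and 6 tissue lists, computed after the levels had been seen, 8 passed an adjusted p under 0.05 by Pearson's r and 1 by Spearman's rho, Kdr with cartilage. Those by r, besides the fat and cartilage relations above, were synovial fibroblast genes with Tek (-0.767), Vegfa (-0.685) and Kdr (-0.653), and erythroid genes with Vegfa (0.707). Without the 2 arrays farthest from the median of each list these were -0.663, -0.635, -0.568 and 0.513. For the fibroblast genes the arrays left out were AIA-cold-WTD replicate 1 and AIA-hot replicate 1. For the erythroid genes they were AIA-cold-WTD replicate 1 and control replicate 3. AIA-hot replicate 2 stayed in for both lists. The part that the fat, cartilage and other tissue in a dissected sample has in the WTD differences of Vegfa was not tested.

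**Figure D5:**
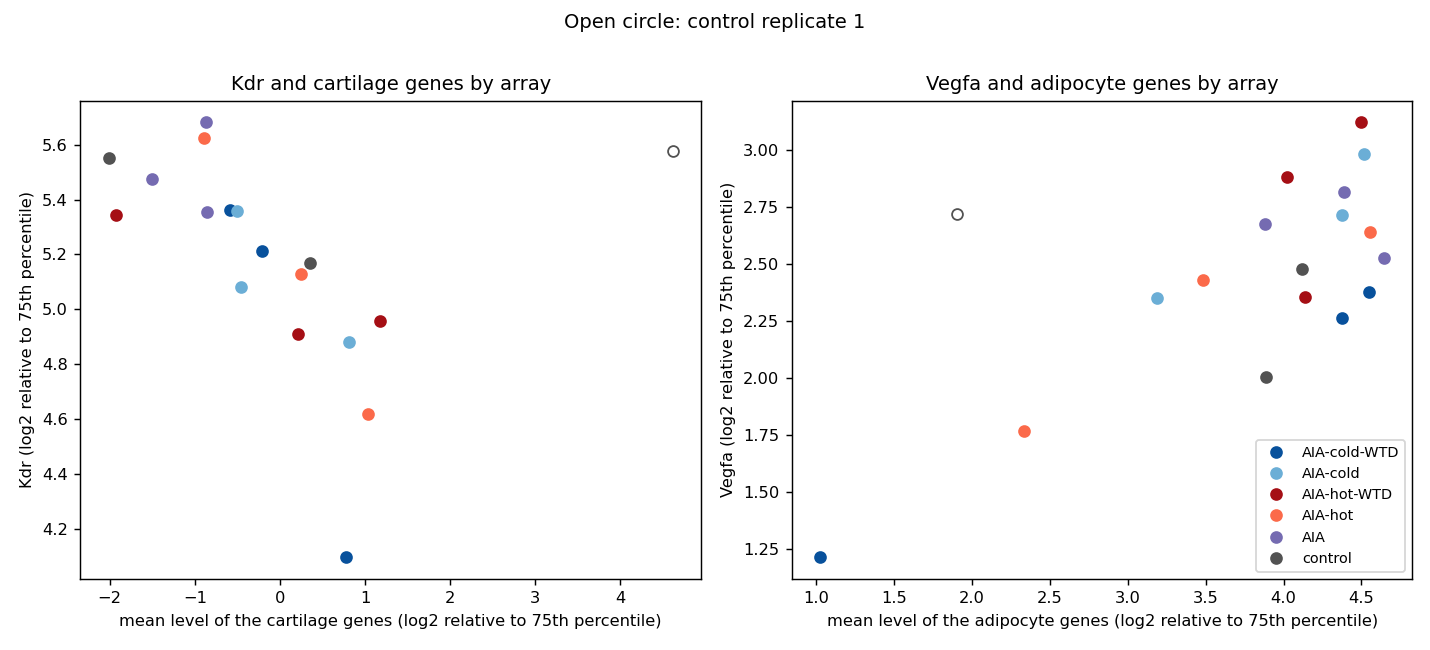
Level of Kdr against the mean level of 8 cartilage genes (left) and level of Vegfa against the mean level of 7 adipocyte genes (right) on each array, all in log2 relative to the array's 75th percentile, coloured by group. AIA-cold-WTD replicate 1, with an adipocyte mean of 1.02 and a Vegfa level of 1.22, stands alone at the lower left of the right panel, and control replicate 1 (open circle) stands alone at the right of the left panel.

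Among the members, Pecam1 and Cdh5 were most alike: their levels ran together with r = 0.89 over the 17 arrays, and each was the other's closest match among the 12045 genes with a symbol. Vegfa and Flt1 had r = 0.75, Vegfa and Tek 0.75 and Kdr and Flt1 0.73, while Notch3 and Pecam1 had 0.15. Outside the members, the genes with the most similar pattern over the 17 arrays were Adgrf5 for Vegfa (r = 0.90), Tmem255b for Flt1 (0.93), Kitlg for Kdr (0.93), Ldb3 for Angpt1 (0.91), Sfnl1 for Angpt2 (0.80), Trib3 for Tek (0.91), Pear1 for Vwf (0.77) and Aup1 for Notch3 (0.83). All these values share the same 17 arrays, and the closest of many genes will show a high r, so these values are a description only.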

How the data were processed

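The deposited scanner files of 18 single-colour Agilent arrays give a brightness (intensity) for each spot. Agilent Feature Extraction 10.7, named in the submitters' processing notes, made them. Spatial and multiplicative detrending of the processed signal intensity were on, per the file headers, and arrays were not scaled to each other. The authors' deposited series table held log2 values brought to a common distribution, judged from its values, and served as an alternative. Its exact scale, and the function that made it, stay unknown, and its column medians were 5.405 to 5.426.

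The log2 processed signal was taken without control spots or outlier spots, spots of a probe were averaged, and the 75th percentile over an array's gene probes was subtracted. Probes well above background on 3 arrays of at least 1 group were kept (28271), and the brightest represented each gene, which left 23606 genes or transcripts, 12045 with a symbol. Names came from a RefSeq gene table (GRCr8), which 18028 probes matched through their accession, 3168 through a symbol and 400 through a synonym, and otherwise from the file.

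Groups came from the labels, and replicate numbers only name arrays. Under R 4.3.3, limma 3.58.1 (lmFit, eBayes) fitted 1 mean per group over all 18 arrays, with 11 contrasts and a moderated F test. The fit was tested on simulated data first. Precision is limited by 3 arrays a group. Relations across arrays used 100000 permutations, two-sided. The named genes are the 10 members, the genes of the lists with the smallest p (up to 6 called, otherwise up to 2), and the closest match of each member. Other settings were 9 alternatives, each array left out in turn, and each probe fitted on its own, the last chosen after seeing the data. The members and the 17 lists (162 of 174 entries measured) were chosen with earlier results of these data known.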

Additional observations from a re-analysis of the deposited data

Results flagged for a closer look

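On the probe that represents Vegfa, every AIA-cold-WTD array lay below the AIA-cold mean and every AIA-hot-WTD array above the AIA-hot mean. The AIA-cold-WTD arrays differed from the AIA-cold mean by -1.47 to -0.30, and the AIA-hot-WTD arrays from the AIA-hot mean by 0.08 to 0.84. The difference between both effects was -1.24 (log2, limma, adjusted p = 0.99), so the test of the difference itself did not pass. The single arrays of the groups overlapped in both models, and on the other Vegfa probe AIA-cold-WTD replicate 2, at 0.52, lay above the AIA-cold mean of 0.40. The same pattern of arrays on opposite sides was seen in 8.19% of 23592 genes. AIA-cold-WTD replicate 1, which gave the lowest value, also had the lowest adipocyte mean of the 18 arrays, at 1.02, and the part of this in the pattern was not tested.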

How the results depend on the processing

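The count of members called was 0 in every comparison under all settings tried: no filter on dim probes, a strict filter, quantile normalization, normexp, the authors' series table, the mean of probes, slide as a random or fixed block, only the groups compared, each array left out and each probe on its own. The smallest adjusted p of a member was 0.058 (Flt1, AIA-cold-WTD against control, normexp), and 0.092 with an array left out (Notch3, AIA-cold-WTD against AIA-cold, without AIA-cold-WTD replicate 1). The sign of a difference turned in 30 of 940 values under other settings and in 76 of 1980 with an array left out, none of them called. For Notch3 in AIA-cold-WTD against AIA-cold the difference lay between -1.53 and -1.11 with an array left out, and at -0.97 with slide as a fixed block, where the cause was not tested. A fixed slide block could be fitted for 7 of the 11 contrasts, and was not run for the F test. No paired analysis was possible because the replicate numbers do not pair arrays. What the data cannot show is limited by 3 arrays a group, and by signal on control replicate 1.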
